A study of Mus musculus with 6 samples.

Results

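The RNA levels of 10 gasdermin and inflammasome genes were examined in mouse lung: the gasdermins Gsdma, Gsdma2, Gsdma3 and Gsdmd, the inflammatory caspases Casp1 and Casp4, the sensor Nlrp3, the adaptor Pycard, and the cytokines Il1b and Il18. The genes were taken by their symbols from a table of 41388 genes, and 8 of them had enough counts to be tested. Lungs of adult mice were collected 7 h into the light phase (Zeitgeber time 7, ZT7). The 3 KO mice belonged to a B6.129S7 line in which the 5′ exons of Zpbp2 are deleted, kept in the C57BL/6J background, and the 3 C57BL/6J WT mice were bred in the same colony. The sexes and exact ages of these mice were not given. RNA from each mouse was sequenced as its own library (WT1 to WT3 and KO1 to KO3). The name of the line marks the deletion as 129-derived, so DNA beside it, where 3 of the gasdermin genes lie, may be of 129 origin in KO, and an effect of that DNA and an effect of the deletion cannot be told apart.

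Inflammasomes are protein platforms of the innate immune response. A sensor such as NLRP3 recruits the adaptor ASC, the product of Pycard, which brings in caspase-1. Caspase-1 matures the precursors of IL-1β and IL-18 and cuts gasdermin D, whose released end forms pores in the cell membrane. Casp4 encodes mouse caspase-11, which responds to bacterial lipopolysaccharide in the cytosol and also cuts gasdermin D. In lung, macrophages, monocytes and neutrophils are well-known users of this pathway, while gasdermin A is known from skin and other stratified epithelium. In the human genome ZPBP2, ORMDL3, GSDMB and GSDMA are neighbours in a region associated with asthma. Mice have no GSDMB and carry a small cluster of Gsdma genes near Zpbp2.

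The Gsdma cluster holds close copies, which bears on how reads can be divided among its genes. The starts of the coding sequences, from the GENCODE M21 models on GRCm38, are shown 5′ to 3′ with the bases that differ from Gsdma in capitals.
Gsdma: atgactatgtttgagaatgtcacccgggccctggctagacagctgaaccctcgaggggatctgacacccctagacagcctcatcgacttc
Gsdma2: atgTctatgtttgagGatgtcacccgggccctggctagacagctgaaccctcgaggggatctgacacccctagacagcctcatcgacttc
Gsdma3: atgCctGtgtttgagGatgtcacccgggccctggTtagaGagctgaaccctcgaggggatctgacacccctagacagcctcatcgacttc
In these 90 bases Gsdma2 differed from Gsdma at 2 positions and Gsdma3 at 5. Over the aligned coding sequences Gsdma was 90.1% identical to Gsdma2, with a longest identical run of 147 bases, and 86.5% identical to Gsdma3, with a longest run of 78 bases. Gsdma2 and Gsdma3 were 85.7% identical. Gsdmd, on another chromosome, was 56.6% identical to Gsdma, with no shared run longer than 8 bases. Reads that fall in the identical runs of the cluster cannot be assigned to 1 gene, so low counts of Gsdma2 and Gsdma3 are uncertain in both directions.

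Differences between the libraries bear on every value. KO2 and KO3 differed by little more than counting noise (1.71 to 3.32 times the counting variance, depending on the count, against 3.74 to 147 times for KO1 and KO2), so their counts were summed as 1 sample and n = 2 for KO. WT1 and WT2 gave 1.86 times at the lowest counts, close to the 1.71 of KO2 and KO3, and 51.7 times at the highest, against 3.32. WT3 and KO1 stood apart from the other libraries in transcripts of squamous epithelium and skeletal muscle: the summed level of 15 squamous markers was 4505 CPM in WT3 and 8390 CPM in KO1 and 25.6 to 28.5 CPM in the other 4. CPM is the count per 1000000 of the TMM-scaled library total. Totals ranged from 59134950 to 71354388 counts, and 3 counts, taken as the floor, equalled 0.0412 to 0.0519 CPM. Zpbp2 itself had 20, 15 and 7 counts in WT1 to WT3 and 1, 0 and 0 in KO1 to KO3. Markers of other cell types differed between the genotypes. The sum of 9 lung epithelial markers was 46030 to 49970 CPM in WT and 65080 to 75440 CPM in KO (5 called higher), that of 7 adipocyte markers 499 to 917 CPM in WT and 55.7 to 138 CPM in KO (2 called lower), and that of 7 cardiomyocyte markers 2791 to 6754 CPM in WT and 1125 to 1724 CPM in KO (0 called, 5 lower at an unadjusted edgeR p under 0.05). Of all genes tested 2.28% were called and 27.3% had an unadjusted p under 0.05. Their part in the levels below was not tested.

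The gasdermin, caspase, sensor, adaptor and cytokine genes were not separated by genotype at the threshold used. Of the 8 tested genes 0 passed an adjusted p of 0.05 in the edgeR quasi-likelihood test, beside 2.28% of all 18660 genes tested. At an unadjusted p under 0.05 there was 1 of the 8 genes, Casp1, beside 27.3% of all genes, and DESeq2 called 1, also Casp1, beside 21.0% of all genes. Casp1 lay lower in each KO library than in each WT library, Il1b lay higher by a narrow margin, and Gsdma was present in 1 library of each genotype. The median log2 fold change (KO minus WT) of the 8 genes was 0.15, and that of all genes tested was 0.02. The former had no stable direction: it was -0.10 without KO1 and -0.0064 with a squamous marker term in the model.

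**Figure D1:**
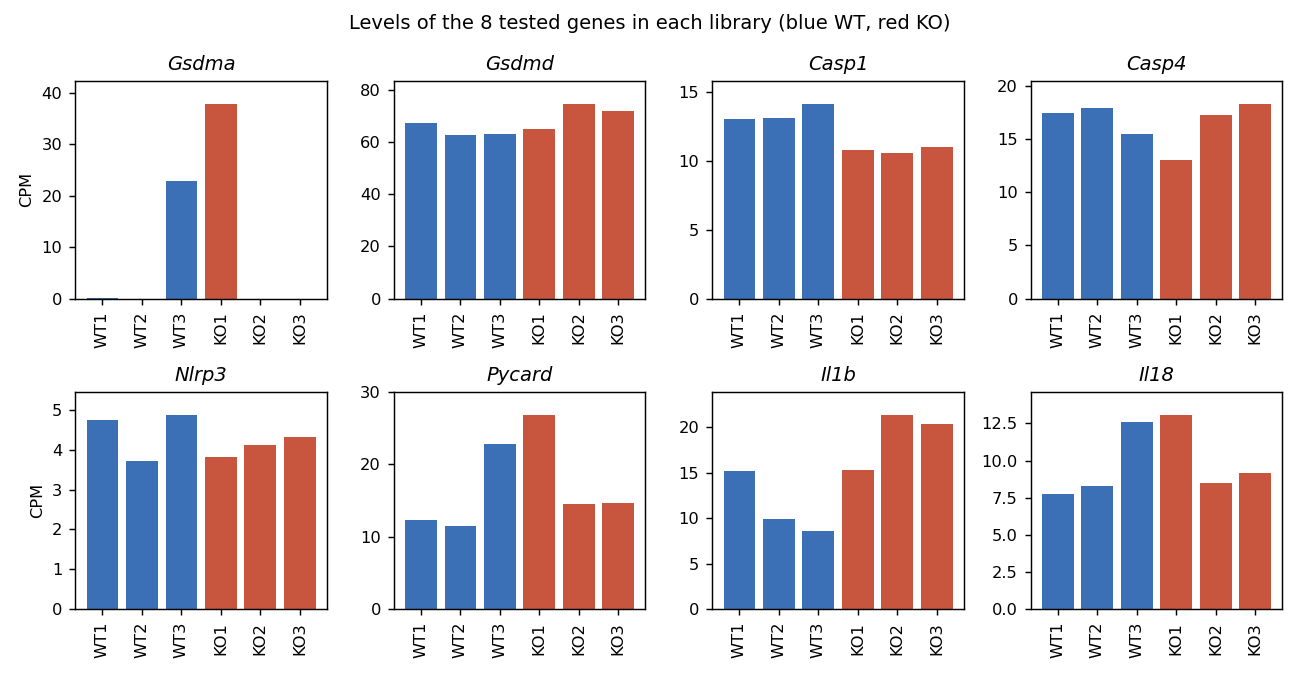
Level (CPM, vertical axis from 0) of each of the 8 tested genes in the 6 libraries, with WT bars in blue and KO bars in red, 1 bar per library and a separate scale per gene. Gsdma stands up in WT3 and KO1, the 3 Casp1 bars of KO are below those of WT, and the Il1b bars of KO2 and KO3 are the highest.

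Levels of different genes were compared per kb of exon. Gsdmd was the highest of the 10 genes in each of the 6 libraries, at 27.8 ± 1.80 CPM per kb. Means and SDs here are over 5 samples, with KO2 and KO3 averaged as 1. Il18 (9.80 ± 2.43), Casp1 (8.26 ± 0.998) and Il1b (7.32 ± 2.58 CPM per kb) came next, and neighbours in this order did not differ beyond their spread. Pycard (4.64 ± 1.79), Gsdma (4.44 ± 6.38) and Casp4 (4.41 ± 0.565 CPM per kb) could not be ordered either. Nlrp3, at 1.05 ± 0.130 CPM per kb, was below these genes in each library with the exception of Gsdma, which was near 0 in 4 libraries. Gsdma3 (0.0238 CPM per kb) and Gsdma2 (0.00161 CPM per kb) were at the bottom.

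Gsdma (ENSMUSG00000017204, chr11:98664351-98677708, plus strand) lies 106 kb from Zpbp2. It had 1, 0 and 1367 counts in WT1, WT2 and WT3, and 2377, 0 and 0 counts in KO1, KO2 and KO3. These correspond to 22.8 CPM in WT3 and 37.7 CPM in KO1, and the other 4 libraries were below the floor. One library of each genotype was thus high, and the genotypes overlapped. The means were 7.60 ± 13.2 CPM in WT (SD, n = 3) against 18.9 ± 26.7 CPM in KO (SD, n = 2), and the log2 fold change of 1.31 (SE 3.11, 95% interval -6.63 to 9.25) had an edgeR adjusted p of 0.823.

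The libraries with Gsdma were those with squamous transcripts. Krt13 and Krt4, keratins of stratified squamous epithelium and the most abundant of the 15 markers, stood at 1856 and 1987 CPM in WT3, at 3575 and 3689 CPM in KO1, and at means of 0.760 and 0.653 CPM in the other libraries. As a description of the transcripts that set these libraries apart, 14 of the 15 squamous markers were above the other 4 libraries in both WT3 and KO1. This was so for 11.9% of all genes tested. At least 1 CPM in each of the 6 libraries was reached by 5 of the 15. The KO1 to WT3 ratio of Gsdma was 1.66 (95% interval 1.55 to 1.77, counting error only). The same ratio was 1.11 to 2.10, with a median of 1.74, over the 11 squamous markers with at least 10 CPM in WT3, and 1.003 (Ivl) to 1.42 (Krt6a) over the other 4. Over the skeletal muscle markers other than Myh2 it was 1.04 (Myh1) to 2.09 (Actn3), a range that also holds the Gsdma ratio. Markers of epidermis and hair summed to 280 CPM in WT3, 727 CPM in KO1 and at most 0.976 CPM elsewhere. Nearly all of this was Lor, a protein of the cornified envelope, at 279 CPM in WT3 and 725 CPM in KO1, while Krt1 was at 0.357 to 0.732 CPM in the 6 libraries and Krt2, Krt71, Krt25 and Krt27 had at most 3 counts in each of the 6 libraries. Glandular stomach markers stayed between 3.31 and 5.67 CPM. All 10 skeletal muscle markers were above the other 4 libraries in both WT3 and KO1, beside 11.9% of all genes tested, although Myh2 was at 100.3 CPM in WT3 and 1.57 CPM in KO1. In bulk lung RNA, fewer cells of a type and less RNA per cell cannot be told apart. With a term for the squamous marker sum in the edgeR model the Gsdma estimate became -0.72 (adjusted p 0.0663). WT3 and KO1 set this term and also hold nearly all Gsdma counts, so the fit restates their shared pattern and cannot test it.

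The 5 genes whose profile over the 6 libraries was most like that of Gsdma were Krt78, Lce3e, Lce1a2, Tgm3 and Defb4. Likeness was the root mean square difference of centred log2(CPM + 0.1) values, which was 0.0902 for Krt78 and 0.159 for Defb4, over a Gsdma range of 8.56. Krt78 is a keratin, Lce3e and Lce1a2 encode late cornified envelope proteins, Tgm3 encodes an epidermal transglutaminase, and Defb4 a beta-defensin. Krt78 was at 57.5 CPM in WT3, 91.4 CPM in KO1 and at most 0.179 CPM elsewhere. With a pseudocount of 0.5 in place of 0.1, 3 of the 5 genes were the same, and with 0.02 the list shared 0 of the 5.

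The neighbours of Gsdma did not share its counts. Gsdma2 (ENSMUSG00000017211, chr11:98646759-98657964, plus strand), 88.1 kb from Zpbp2, had 1 count in WT3, 1 in KO2 and 0 in the other libraries. Gsdma3 (ENSMUSG00000064224, chr11:98626360-98638226, plus strand), 67.7 kb from Zpbp2, reached 4 counts in WT1 and 0 in WT2 and WT3, and 5, 5 and 2 counts in KO1 to KO3. Gsdma3 reached at most 0.0813 CPM. WT3, with 1367 counts of Gsdma, had 0 of Gsdma3. Both genes fell below the count filter and were not tested. Gasdermin A2 and A3 are, like gasdermin A, known from epithelia, and Gsdma3 is known from mutations that cause hair loss in mice.

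Of the other gasdermins, Gsdmc and Dfna5 (the table's symbol for gasdermin E) were tested and 4 were too low. Gsdmc had 275 counts in WT3, 374 in KO1 and 0 in the other 4 libraries, with a KO1 to WT3 ratio of 1.29 (1.11 to 1.52). Like Gsdma, it passed the count filter through WT3 and KO1 alone, so that it shared these libraries with Gsdma was fixed by the filter. Dfna5 was even across libraries, at 1.29 ± 0.0577 CPM in WT (SD, n = 3) against 1.19 ± 0.0479 CPM in KO (SD, n = 2) (log2 fold change -0.12, edgeR adjusted p 0.684).

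Gsdmd (ENSMUSG00000022575, chr15:75862327-75867408, plus strand), the pore-forming substrate of both caspases, was the most abundant and among the steadiest of the genes. It was at 67.2, 62.5 and 63.1 CPM in WT1 to WT3 and at 65.1, 74.4 and 71.8 CPM in KO1 to KO3. KO2 and KO3 were the highest, and KO1 lay within the WT range. The log2 fold change was 0.10 (SE 0.07, 95% interval -0.08 to 0.28) with an edgeR adjusted p of 0.400, and it was 0.17 without KO1. Gsdmd and Gsdma thus differed in where they were found: Gsdmd in each library at similar levels, Gsdma in WT3 and KO1.

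**Figure D2:**
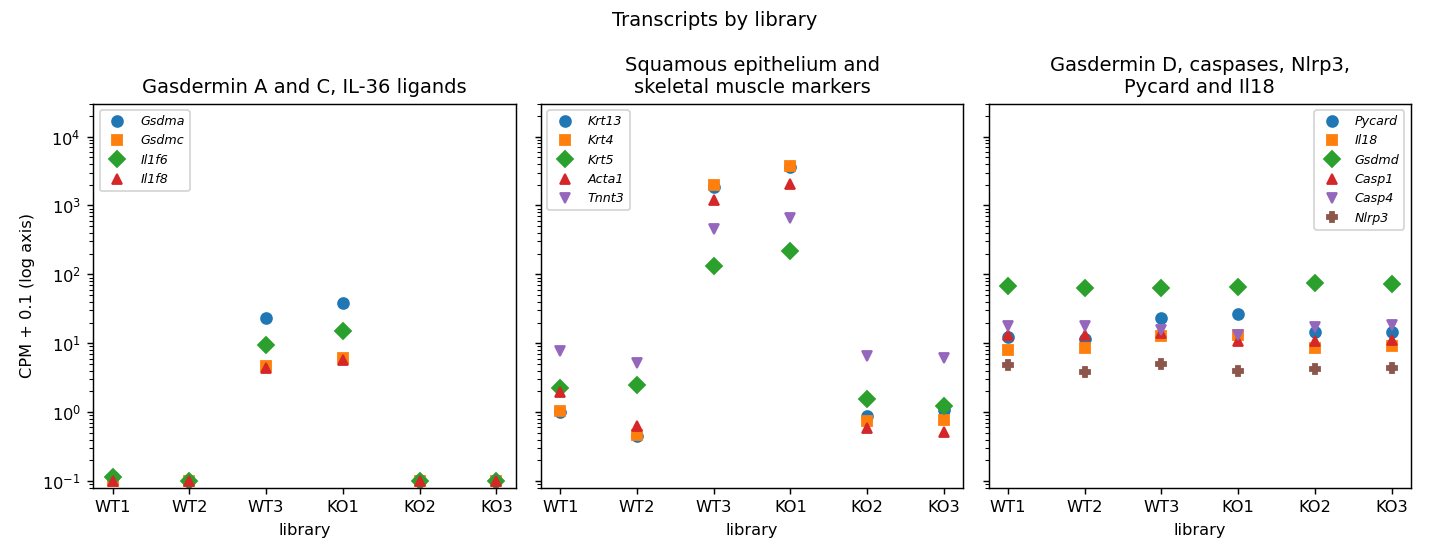
CPM + 0.1 on a log axis in each of the 6 libraries, 1 point per gene and library, for gasdermins A and C with 2 IL-36 ligands (left), markers of squamous epithelium and skeletal muscle (middle), and the other core genes without Il1b (right). Genes of the left panel are near the bottom of the axis outside WT3 and KO1, those of the middle panel are raised in the same libraries, and those of the right panel are found in each library, with Pycard and Il18 highest in WT3 and KO1.

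Casp1 (ENSMUSG00000025888, chr9:5298517-5307265, plus strand) encodes the protease that matures IL-1β and IL-18. It was at 13.1, 13.1 and 14.1 CPM in WT1 to WT3 and at 10.81, 10.54 and 11.01 CPM in KO1 to KO3. Each KO library was below each WT library, as were 20.2% of all genes tested. The means were 13.4 ± 0.586 CPM in WT (SD, n = 3) against 10.8 ± 0.0210 CPM in KO (SD, n = 2), a WT level 1.24-fold that of KO. The log2 fold change was -0.31 (SE 0.08, 95% interval -0.52 to -0.11), and the edgeR p of 0.0116 became 0.0919 after adjustment over all genes. The estimate was below 0 in 18 of 18 alternative settings, from -0.39 to -0.28. It passed the threshold in 2 of them, with the 6 libraries kept separate (adjusted p 0.0257, where 18.9% of all genes were called) and with DESeq2 (adjusted p 0.00320).

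Casp4 (ENSMUSG00000033538, chr9:5308828-5336783, plus strand) begins just downstream of Casp1. It was at 17.4, 18.0 and 15.5 CPM in WT1 to WT3 and at 13.04, 17.3 and 18.3 CPM in KO1 to KO3. KO1 was the lowest and KO3 the highest of the 6 libraries, so the genotypes overlapped. Its log2 fold change was -0.14 (SE 0.16, 95% interval -0.54 to 0.26, edgeR adjusted p 0.621), and without KO1 it was 0.05.

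The sequence before the start of Casp1 is shown because Casp1 was the gene with the smallest adjusted p, and that of Il1b because its estimate was the largest of the genes found in each library. Each is the 250 bases before the RefSeq start on GRCm38.p6, 5′ to 3′ on the gene's strand. The windows are chr9:5298267-5298516, plus strand, for Casp1 and chr2:129371140-129371389, minus strand, for Il1b. Capitals mark matches, on either strand, to the E-box CACGTG, the REV-ERB and ROR half-site AGGTCA, the AP-1 site TGANTCA, the kappaB pattern (GGG, 5 bases of any kind, CC), the TATA box TATAAA and the interferon-response core (GAAA, 2 bases of any kind, GAAA).
Casp1: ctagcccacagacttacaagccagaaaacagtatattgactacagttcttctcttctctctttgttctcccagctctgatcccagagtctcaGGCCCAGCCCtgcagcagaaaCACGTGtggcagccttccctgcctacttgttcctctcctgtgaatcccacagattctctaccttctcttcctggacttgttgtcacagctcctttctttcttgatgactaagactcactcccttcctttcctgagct
Il1b: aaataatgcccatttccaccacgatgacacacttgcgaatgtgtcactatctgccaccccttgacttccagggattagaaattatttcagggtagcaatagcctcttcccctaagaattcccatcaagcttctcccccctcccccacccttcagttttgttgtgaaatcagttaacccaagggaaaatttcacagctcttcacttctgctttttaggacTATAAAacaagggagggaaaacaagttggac
The Casp1 window held 1 CACGTG, whose first base was at position -137, and 1 kappaB match at -158. These letters occurred in 6.02% and 45.8% of 32851 windows of the same length. The Il1b window held TATAAA at -31, found in 12.4% of windows, and none of the other patterns. A match is a description of letters and not of a bound site. The RefSeq table held 7 of the 10 genes, and Gsdma, Gsdma2 and Gsdmd were not among them. Over the 9 windows of these 7 genes, 5 held the kappaB pattern, 2 TATAAA, 1 CACGTG, 1 the interferon-response core and 0 either AGGTCA or TGANTCA.

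Nlrp3 (ENSMUSG00000032691, chr11:59541568-59566956, plus strand), the sensor, lies on the chromosome of Zpbp2 but 39.0 Mb away. It was at 4.75, 3.72 and 4.87 CPM in WT1 to WT3 and at 3.81, 4.12 and 4.32 CPM in KO1 to KO3. WT2 was the lowest library and the KO values lay inside the WT range. The log2 fold change was -0.15 (SE 0.17, 95% interval -0.58 to 0.28, edgeR adjusted p 0.622), and it was -0.27 without WT2, -0.08 without WT3 and -0.09 without KO1.

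Pycard (ENSMUSG00000030793, chr7:127989708-127993867, minus strand), which encodes the adaptor ASC, was at 12.4, 11.6 and 22.9 CPM in WT1 to WT3 and at 26.8, 14.5 and 14.6 CPM in KO1 to KO3. WT3 and KO1 were the highest, so Pycard had a smaller version of the Gsdma pattern above a level found in each library. The log2 fold change was 0.41 (SE 0.40, 95% interval -0.62 to 1.44, edgeR adjusted p 0.572), and it was 0.27 (adjusted p 0.201) without WT3 and KO1. The KO1 to WT3 ratio of the level above the mean of the other 4 libraries was 1.41. The 5 most similar profiles to Pycard were those of Ecm1, Ppl, Ano9, Ccbl1 and Bin1, with root mean square differences of 0.0640 to 0.0955 log2 units over a range of 1.21. Ppl encodes periplakin, a protein of desmosomes and the cornified envelope. Pycard shares 485 bases of exon with a predicted transcript on the opposite strand, and whether counting used the strand is not given in the sources used here.

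Il18 (ENSMUSG00000039217, chr9:50554827-50581840, plus strand), a cytokine made as an inactive precursor by epithelial and myeloid cells, was at 7.76, 8.31 and 12.6 CPM in WT1 to WT3 and at 13.1, 8.46 and 9.18 CPM in KO1 to KO3. WT3 and KO1 were again the highest. The log2 fold change of 0.20 (SE 0.28, 95% interval -0.52 to 0.91) had an edgeR adjusted p of 0.705, and without WT3 and KO1 it was 0.12 (adjusted p 0.656). The KO1 to WT3 ratio of the Il18 level above the mean of the other 4 libraries was 1.118. Besides Gsdma, which passed the count filter through WT3 and KO1 alone, Pycard and Il18 (2 of the other 7 tested genes) had WT3 and KO1 above the other 4 libraries, beside 11.9% of all genes tested. The part of the squamous transcripts in the levels of Pycard and Il18 was not tested beyond the model with the squamous term, in which their estimates were 0.22 and 0.07.

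Il1b (ENSMUSG00000027398, chr2:129364570-129371139, minus strand), which encodes the precursor of IL-1β and is known to be induced by NF-kB, was at 15.2, 9.90 and 8.57 CPM in WT1 to WT3 and at 15.3, 21.4 and 20.4 CPM in KO1 to KO3. KO2 and KO3 were clearly the highest, while KO1 (15.31 CPM) was barely above WT1 (15.16 CPM). The means were 11.2 ± 3.49 CPM in WT (SD, n = 3) against 18.1 ± 3.94 CPM in KO (SD, n = 2), 1.62-fold higher. The log2 fold change was 0.69 (SE 0.28, 95% interval -0.03 to 1.42), with an edgeR p of 0.0576 and an adjusted p of 0.197. Each KO library was above each WT library, as in 20.7% of all genes tested, but with scaling by library size alone KO1 (14.95 CPM) was below WT1 (15.5 CPM).

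The Il1b estimate was above 0 in 18 of 18 alternative settings, from 0.45 to 0.97. It passed the threshold in 1 of them, the model with the squamous marker term (0.80, adjusted p 0.0493, where 12.4% of all genes were called). Without WT3 and KO1 it was 0.72 (adjusted p 0.0578). Il1b shares 25 bases of exon with the antisense gene Il1bos, which had 29 to 57 counts per library against 514 to 1313 of Il1b. The genes with the profile most like Il1b were Polr2k, Gm17501, Esm1, Gp9 and Rab17, with root mean square differences of 0.0945 to 0.132 over a range of 1.31. Gp9, a platelet glycoprotein gene, was at 5.12 to 7.69 CPM in WT and 7.81 to 12.9 CPM in KO.

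Marker lists were read beside Il1b. The summed immediate early genes, such as Fos and Egr1, were at 680 to 1014 CPM in WT, 1348 CPM in KO1 and 2550 and 2552 CPM in KO2 and KO3, with KO2 and KO3 highest as for Il1b. In edgeR 0 of these 9 genes were called, and 5 (55.6%) had an unadjusted p under 0.05, beside 27.3% of all genes. Each KO library was above each WT library in 5 of the 9, beside 20.7% of all genes, and the others, Egr1 among them, overlapped. Erythroid genes were also highest in KO2 and KO3 (19170 and 19920 CPM), but were higher in WT3 (5520 CPM) than in KO1 (3964 CPM), unlike Il1b. Neutrophil markers, from a main cell source of Il1b, summed to 256 to 352 CPM in WT and 295 to 301 CPM in KO, with 9 of the 13 at 1 CPM or more in each library, but the genes within this sum went both ways. Of 12 tested 10 had estimates below 0 (median -0.27), and 5 (41.7%) had an unadjusted p under 0.05, beside 27.3% of all genes, 4 of them lower: Ltf (-1.24, edgeR adjusted p 0.104), Mmp9 (-0.74, adjusted p 0.106), Camp (-2.07, adjusted p 0.140) and Ngp (-2.69, adjusted p 0.161). G0s2, which other cell types also express, was called higher, at 67.8 to 74.0 CPM in WT and 138 to 142 CPM in KO (0.97, adjusted p 0.0268). S100a8 and S100a9 had adjusted p values of 0.682 and 0.643. The median was -0.17 without WT1, -0.46 without KO1 and -0.73 without both WT3 and KO1, where 4 of 13 were called, beside 11.9% of all genes. DESeq2 called 5 of the 12, beside 21.0% of all genes. Of these neutrophil genes, those other than G0s2 and Ltf were named after their values were seen. The part of these in the level of Il1b was not tested.

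Genes known to be induced by NF-kB were read beside Il1b. Of 14 genes 11 had an estimate above 0, with a median log2 fold change of 0.21 against 0.02 for all genes. In edgeR 0 of them passed the threshold, 2 (14.3%) had an unadjusted p under 0.05, beside 27.3% of all genes, and DESeq2 called 1, beside 21.0% of all genes. The 2 most abundant were Icam1 (0.10, adjusted p 0.336) and Nfkbia (0.20, adjusted p 0.267, and 0.023 with an offset for gene length and GC content). Ccl3, a macrophage chemokine named here after its values were seen, was at 1.77, 0.668 and 1.35 CPM in WT and at 3.55, 5.73 and 5.74 CPM in KO, and its estimate was 1.88 (SE 0.45, adjusted p 0.0805). Without WT3 and KO1, which leaves 1 KO sample, 5 of the 14 passed, beside 11.9% of all genes, and the median was 0.51. Leaving out single libraries moved it from 0.14 (without WT2) to 0.48 (without KO1), and it was 0.14 without KO2 and KO3, with 0 called in each of these.

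Beyond the core genes, 55 further genes of the pathway were read from the same fit and 51 had enough counts. Again 0 passed the threshold in edgeR (10 lower and 1 higher at an unadjusted p under 0.05, 21.6% beside 27.3% of all genes), and DESeq2 called 9, beside 21.0% of all genes. Estimates were below 0 for 31 genes and above 0 for 20, with a median of -0.09. In 18 of the 51 (35.3%) each KO library was below each WT library, against 20.2% of all genes, and in 3 (5.88%) each was above, against 20.7%.

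Of the 12 other sensors 10 had estimates below 0 and the median was -0.32, while 4 (33.3%) had an unadjusted p under 0.05, beside 27.3% of all genes. The 2 most abundant were Naip5 (-0.14, adjusted p 0.613) and Aim2 (-0.14, adjusted p 0.507), the receptor of cytosolic DNA, and without KO1 these were 0.056 and -0.048. The next were chosen after their values were seen. Naip2, a partner of Nlrc4 in sensing bacterial secretion systems, was at 10.3, 12.2 and 10.99 CPM in WT and at 7.54, 9.55 and 7.81 CPM in KO (-0.46, SE 0.12, adjusted p 0.0966). Naip6, a flagellin receptor, was at 8.35, 7.03 and 8.30 CPM in WT and at 4.08, 5.74 and 5.96 CPM in KO (-0.67, SE 0.20, adjusted p 0.112). Nlrp1b, a sensor of pathogen proteases, had an estimate of -0.49 (adjusted p 0.124), which was -0.32 without KO1. For these 3 sensors KO1 was the lowest library. The Naip and Nlrp1 genes are families of close copies, so their reads may be divided between members with error. Without WT3 and KO1 the median of the sensors was -0.22, with 9 of 12 below 0, and without KO1 alone it was -0.17. Without KO2 and KO3 it was -0.49.

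The 18 regulators and other caspases had a median of -0.05, and 4 (22.2%) were lower, and 0 higher, at an unadjusted p under 0.05, beside 27.3% of all genes in either direction. The most abundant, Txnip (a stress-responsive partner of NLRP3) and Irf1 (an interferon-induced transcription factor), had estimates of -0.08 (adjusted p 0.528) and 0.01 (adjusted p 0.952). Guanylate-binding proteins, a family that helps expose bacterial lipopolysaccharide to caspase-11, were named after their values were seen. Gbp2 (-0.27, edgeR adjusted p 0.162) and Gbp3 (-0.29, adjusted p 0.266) had the smaller estimates of those listed. Gbp7 was at 93.6, 93.8 and 89.0 CPM in WT and at 45.3, 67.6 and 67.7 CPM in KO (-0.71, SE 0.17, adjusted p 0.0842). Gbp5 was at 31.7, 32.2 and 31.7 CPM in WT and at 16.8, 25.7 and 24.4 CPM in KO (-0.61, SE 0.17, adjusted p 0.109). In both genes the WT libraries were close together, KO1 was the lowest, and without KO1 the estimate moved to -0.46 for Gbp7 and -0.36 for Gbp5.

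**Figure D3:**
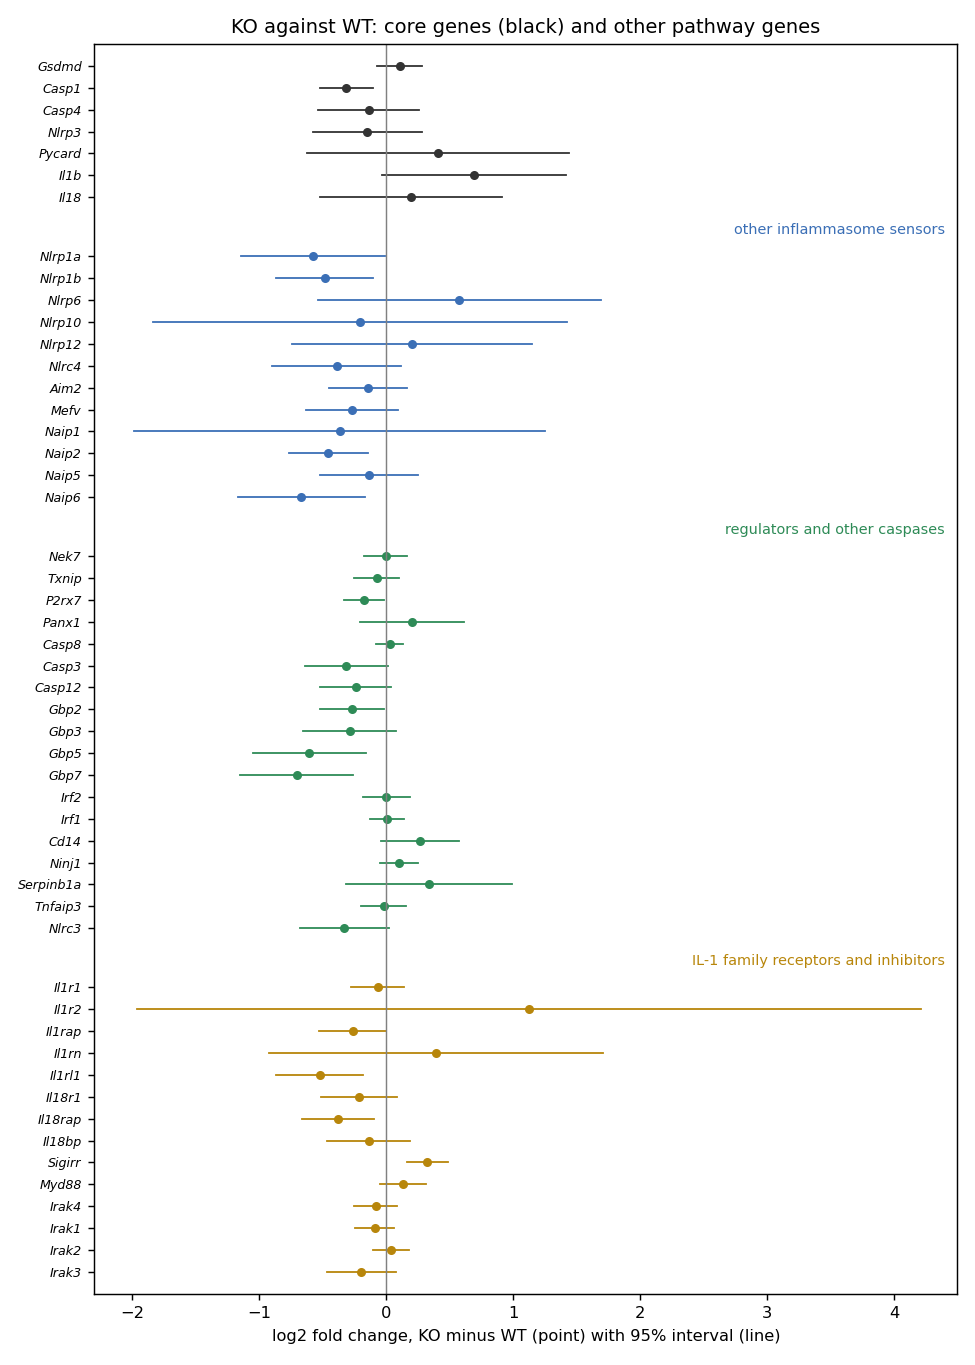
Log2 fold change, KO minus WT (horizontal axis, point), with its 95% interval (line) for the core genes other than Gsdma (black) and for 3 groups of other pathway genes, from the edgeR fit on 3 WT and 2 KO samples. The Casp1 interval of -0.52 to -0.11 is to the left of 0, most sensors are left of 0, and the intervals of Il1r2, Nlrp10, Naip1 and Il1rn are the widest.

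Of the 5 IL-1 family ligands 4 had WT3 and KO1 above the other 4 libraries, beside 11.9% of all genes tested. The margin was wide in Il1f6, Il1f8 and Il1f9 and narrow in Il33. Il1f6 and Il1f8 passed the count filter through WT3 and KO1 alone, so their pattern was fixed by the filter and adds nothing to this count. Of the others, Il1f9 and, narrowly, Il33 had the pattern and Il1a did not. Il1f6 and Il1f8 (IL-36 alpha and beta, cytokines of stratified epithelium, named after their values were seen) had 567 and 257 counts in WT3 and 944 and 359 in KO1, and at most 1 and 0 counts elsewhere. Il1f9 (IL-36 gamma) was at 8.40 CPM in WT3, 10.3 CPM in KO1 and 2.56 to 2.88 CPM in the others. Il33, an alarmin of lung epithelium and stroma and the most abundant ligand, was at 70.1 to 80.9 CPM over the 6 libraries, with means of 76.1 ± 5.48 CPM in WT (SD, n = 3) against 76.9 ± 4.19 CPM in KO (SD, n = 2) (0.01, adjusted p 0.926).

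Among 14 receptors, inhibitors and signalling partners 9 had estimates below 0 and the median was -0.09. At an unadjusted p under 0.05 there were 3 (21.4%), beside 27.3% of all genes: Il1rl1 and Il18rap lower and Sigirr higher. The most abundant were Il18r1, a chain of the IL-18 receptor, at 155 ± 10.3 CPM in WT and 134 ± 21.8 CPM in KO (-0.21, adjusted p 0.314, and -0.07 without KO1), and Irak1, a kinase downstream of the receptors (-0.09, adjusted p 0.393, and -0.03 without KO1). Named after their values were seen, the decoy receptor Il1r2 and the antagonist Il1rn had WT3 and KO1 above the others. They were 2 of the 14 (14.3%), close to the 11.9% of all genes tested. Il1r2 was at 5.37 CPM in WT3, 9.97 CPM in KO1 and at most 1.099 CPM elsewhere. Sigirr, an inhibitory receptor also named after its values were seen, was at 32.9, 30.0 and 29.8 CPM in WT and at 38.8, 37.0 and 40.3 CPM in KO (0.32, SE 0.06, adjusted p 0.0597). Il1rl1, the receptor of IL-33, was at 7.73, 9.11 and 8.04 CPM in WT and at 5.30, 6.30 and 6.15 CPM in KO (-0.52, SE 0.13, adjusted p 0.0897). Il18rap, the other chain of the IL-18 receptor, was at 19.0, 18.6 and 15.6 CPM in WT and at 13.2, 14.7 and 13.3 CPM in KO (-0.38, SE 0.11, adjusted p 0.113). These were also named after their values were seen.

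Macrophage and monocyte markers were read beside Casp1 and the sensors, which these cells express. Of 9 monocyte markers 9 had estimates below 0 (median -0.24), beside 8928 of 18660 genes, with 0 past the threshold in edgeR and 3 (33.3%) at an unadjusted p under 0.05, beside 27.3% of all genes. DESeq2 called 3, beside 21.0% of all genes. Their sum, dominated by Fn1, was 959 to 1717 CPM in WT and 830 to 991 CPM in KO. Csf1r, the receptor of the macrophage growth factor, was at 203 ± 11.02 CPM in WT (SD, n = 3) against 153 ± 9.65 CPM in KO (SD, n = 2) (-0.41, adjusted p 0.0546). Alveolar macrophage markers summed to 351 to 408 CPM in WT and 343 to 350 CPM in KO, and the 12 genes went both ways, with 7 estimates below 0, 5 above and a median of -0.03. The mannose receptor gene Mrc1 was the 1 gene past the threshold in edgeR, beside 2.28% of all genes (DESeq2 called 4, beside 21.0%), at 53.2 ± 4.18 CPM in WT and 36.1 ± 0.826 CPM in KO (-0.56, adjusted p 0.0474). All 9 monocyte and 12 alveolar macrophage markers had at least 1 CPM in each library. At an unadjusted p under 0.05 (6 of 12, beside 27.3% of all genes), Mrc1, Ear2 and Siglec5 were lower (Ear2 and Siglec5, as the next 3, named after their values were seen) and Krt79 (0.31, adjusted p 0.0799), Fabp1 (0.43, adjusted p 0.166) and Ctsk (0.23, adjusted p 0.137) higher. The part of these cells in the level of Casp1 was not tested.

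**Figure D4:**
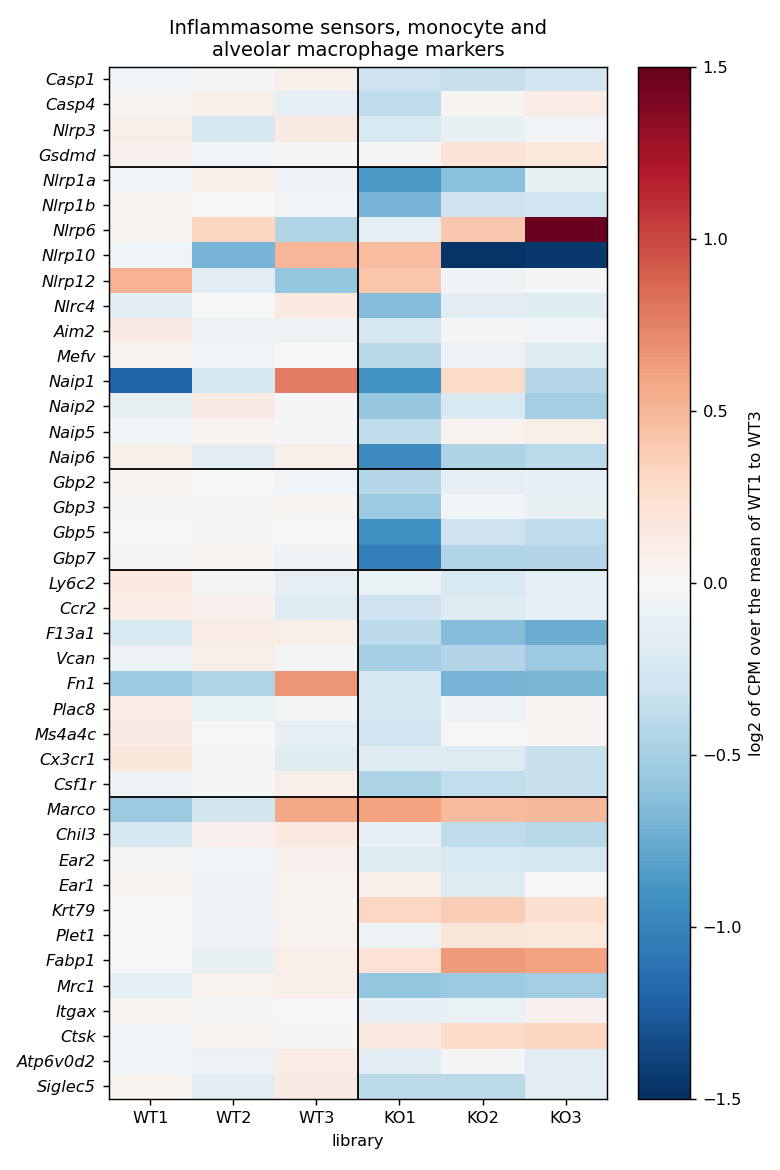
Log2 of the CPM in each of the 6 libraries over the mean of WT1 to WT3 (colour, blue below and red above 0) for caspases, Nlrp3 and Gsdmd (top block), the 12 other sensors, 4 guanylate-binding proteins, 9 monocyte markers and 12 alveolar macrophage markers (blocks in this order). Casp1, Naip2, Naip6, Gbp5, Gbp7, Csf1r and Mrc1 are blue in the 3 KO libraries, while Gsdmd, Casp4 and Naip5 are not blue in all 3, and Krt79, Fabp1 and Ctsk are red there.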

How the data were processed

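RNA was sequenced from 6 mouse lung libraries. The authors trimmed reads with Trimmomatic 0.36, aligned them to GRCm38 (mm10) with STAR 2.5.3a and counted reads per gene with HTSeq 0.6.0, and the submitters' processing notes also list Picard 2.9.0. The deposited values are raw counts per gene, with no normalization. The annotation release, read length and use of strand are not given in the sources used here.

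The 10 genes and all lists were chosen with earlier results of these data known. The fit used edgeR 4.0.16 in R 4.3.3, with filterByExpr, TMM factors, and the two-sided quasi-likelihood test of KO against WT on 5 samples (KO2 and KO3 summed), with Benjamini-Hochberg adjustment over 18660 genes and calls at an adjusted p of at most 0.05. The rest of the pathway was named by rule: called genes, the 2 most abundant per role or marker list, and the 5 profiles most like each core gene whose level varied widely. Other genes printed with values were chosen after these were seen. The script was tested on simulated counts with known fold changes. Alternatives were other sample handling, DESeq2 1.42.0, other scaling and filters, a squamous marker term, a length and GC offset, a replicate block, and leaving out libraries. Leaving out WT3 and KO1 together was added after the data were seen. Floors and ratio intervals cover counting error only. Coordinates are from GENCODE M21 on GRCm38, which held 40340 (97.5%) of the gene identifiers.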

Additional observations from a re-analysis of the deposited data

How the results depend on the processing

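Of the results for the core genes under the alternatives, 129 kept their direction and side of the threshold, 3 passed it and 6 turned direction. With the 6 libraries kept separate, 3402 genes were called (1 core, 4 further pathway and 2 NF-kB genes); with DESeq2 3919 (1, 9 and 1); with the squamous marker term 2305 (1, 3 and 1); and without WT3 and KO1 2256 (0, 5 and 5). At least 10 counts in every library gave 937, and library size alone gave 306, of which 117 were higher and 189 lower, against 257 higher and 169 lower of 426. The length and GC offset gave 0 in edgeR (3302 at an unadjusted p under 0.05). Leaving out 1 mouse gave 0 to 418, with 0 without WT1, WT2 or WT3, 17 without KO1, and 0 without KO2 and KO3 (3346 to 5070 at an unadjusted p under 0.05). Where 1 KO sample remained it was assumed to vary like the WT samples.

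Replicate numbers were not taken as pairs: deviations from the group means correlated at -0.66 (number 1), 0.71 (number 2) and -0.79 (number 3). A replicate block with 6 libraries gave 1157 called genes, and 8 with the length and GC offset, with no core gene in either.

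The squamous marker term turned Gsdma to -0.72, Gsdmc to -0.97, Il1f6 to -0.64, Il1f8 to -0.92 and Il33 to -0.011. Apart from Il33, these genes passed the filter through WT3 and KO1 alone, the libraries that set the term. The length and GC offset turned Gsdmd and Irf1 to -0.024 and Dfna5 to 0.13, and with the replicate block it turned Dfna5 to 0.095, Naip5 to 0.0028 and Il1r2 to -0.0015. Library size alone turned Irf1 to -0.048 and Il33 to -0.039. Il33 was also -0.011 with 6 libraries, -0.0092 with the block and -0.0094 without WT3 and KO1, a setting that turned Naip5 to 0.046 and Il1r2 to -0.29. Irf1 was -0.032 without KO2 and KO3. Over single left-out libraries the estimates ran from -12.26 to 1.31 for Gsdma, -9.94 to 0.96 for Gsdmc, -10.99 to 1.25 for Il1f6 and -9.85 to 1.004 for Il1f8. These lowest values came without KO1 and depend on the prior count, since KO2 and KO3 were at 0; without WT3 these genes did not pass the filter. The ranges were -0.20 to 0.052 for Casp4, -0.11 to 0.79 for Pycard, -0.13 to 0.44 for Il18, -0.16 to 0.056 for Naip5, -0.056 to 0.057 for Il33, -0.0099 to 0.031 for Irf1, -0.71 to 1.26 for Il1f9, -1.55 to 2.38 for Il1r2 and -0.41 to 0.83 for Il1rn. The values without KO1 were the lowest of these for Pycard, Il18, Il33, Il1f9, Il1r2 and Il1rn and the highest for Casp4, Naip5 and Irf1. The cause was not tested. With 2 KO samples the interval of each tested core gene other than Casp1 includes changes of either direction.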
